A study of Mus musculus with 12 samples.

Results

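The 10 genes described here, Cdkn1a, Mdm2, Ccng1, Bax, Bbc3, Phlda3, Trp53inp1, Zmat3, Eda2r and Sesn1, are established transcriptional targets of p53, and they were picked by name as such targets, with earlier results of these data known. They are 10 of the 46983 genes in the count files, and all 10 were among the 15664 genes that passed a filter on low counts. RNA was sequenced from primary mouse hepatocytes, cells isolated from liver and used right after isolation. The mice carried AEG-1-L24K/L25H (knock-in, made with CRISPR/Cas9) or AEG-1-WT (wild type), were littermates from matings of heterozygotes in a C57BL/6/J background, and ate regular chow. L24K and L25H are 2 amino acid changes in AEG-1, also called metadherin, the product of the gene Mtdh, and gene counts cannot show them. The 4 groups were knock-in cells given CP775146, untreated knock-in cells, wild-type cells given CP775146 and untreated wild-type cells, with 3 libraries each. CP775146 activates PPAR-alpha, the receptor through which fatty acids switch on their own oxidation in liver, and was given at 2.5 µM for 24 h. Treated cells were thus in culture for at least 24 h before their RNA was taken. The labels name no vehicle for the untreated cells and give neither the age nor the sex of the donor mice. They do not say whether 3 libraries of 1 group stem from different mice or cultures, so p-values measure the spread between these libraries, which may be technical.

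p53, encoded by Trp53, is a transcription factor that is held low in unstressed cells by the ubiquitin ligase MDM2 and its partner MDM4. DNA damage and other stresses free it from them, and it then binds pairs of half-sites in DNA and switches on genes that stop the cell cycle, start apoptosis, restrain growth signalling and, through Mdm2 itself, shut p53 off again. In liver it is known for its part in the response to DNA damage and in regeneration, and many of its targets are also transcribed at a basal rate by other factors.

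The p53 half-site, a consensus of 10 letters searched on both strands by its name alone, was found in the promoter windows of 5 of the 8 genes for which RefSeq (GRCm38.p6) gave a window of 300 bases, 250 before the transcription start and 50 after it. That is 62.5% of these genes, against 25% of 32 other p53 targets with a window and 9.55% of 27025 mouse genes. An element of 20 letters, made of adjacent half-sites with at most 1 letter off, was found at Cdkn1a and Ccng1, 2 of the 8 genes or 25%, against 3.12% of the other p53 targets and 0.0814% of all genes. The stretches around these matches are shown 5′ to 3′ on the strand of the gene, since p53 acts on its targets through such elements. Capitals mark a half-site match or a whole 20-letter element.
Cdkn1a, chr17:29090881-29090962, plus strand: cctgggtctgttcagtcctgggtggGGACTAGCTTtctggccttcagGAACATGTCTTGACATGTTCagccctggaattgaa
Ccng1, chr11:40755437-40755496, minus strand: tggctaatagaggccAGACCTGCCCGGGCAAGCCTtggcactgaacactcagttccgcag
Mdm2, chr10:117710910-117710969, minus strand: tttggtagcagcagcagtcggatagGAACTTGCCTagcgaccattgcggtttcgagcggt
Bax, chr7:45467065-45467124, minus strand: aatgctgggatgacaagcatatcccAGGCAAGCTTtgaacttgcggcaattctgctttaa
Sesn1, chr10:41887241-41887300, plus strand: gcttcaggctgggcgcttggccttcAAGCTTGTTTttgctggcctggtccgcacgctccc

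The Cdkn1a element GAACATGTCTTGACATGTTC lay 51 to 32 bases before the start of its window's transcript, at chr17:29090928-29090947, and that of Ccng1 lay 195 to 176 bases before its start, at chr11:40755462-40755481. The Sesn1 match belongs to the window of an internal start of the gene, and gene counts do not separate transcripts by their start. The windows of Bbc3, Phlda3 and Eda2r held no match. Neither did a further window of Cdkn1a, at chr17:29093519-29093818 and so at another start of the gene, or the other window of Sesn1. This says only that these letters are not in these windows. Trp53inp1 and Zmat3 were not searched. A match is a description of the sequence and not of binding.

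In GRCm38, Cdkn1a (ENSMUSG00000023067) lies at chr17:29090979-29100722 on the plus strand, Sesn1 (ENSMUSG00000038332) at chr10:41810574-41908424 on the plus strand and Mdm2 (ENSMUSG00000020184) at chr10:117688888-117710758 on the minus strand. Trp53inp1 (ENSMUSG00000028211) lies at chr4:11156431-11174379, Phlda3 (ENSMUSG00000041801) at chr1:135766119-135769136 and Bbc3 (ENSMUSG00000002083) at chr7:16309616-16318205, all on the plus strand. Ccng1 (ENSMUSG00000020326) lies at chr11:40748552-40755311, Bax (ENSMUSG00000003873) at chr7:45461695-45466898, Zmat3 (ENSMUSG00000027663) at chr3:32334792-32366014 and Eda2r (ENSMUSG00000034457) at chrX:97333840-97377216, all on the minus strand. Counts are sums over the exons of each gene, and no exon of the 10 overlaps that of another gene.

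Total counts ran from 26956032 to 34885451 per library, so that 3 counts correspond to 0.086 to 0.111 CPM of these unadjusted totals. All other CPM are on library sizes adjusted by the TMM method. Every p53 target was far above that, with at least 447 counts (Bbc3) and at most 22511 counts (Trp53inp1) in any library. The biological coefficient of variation was 2.61% in treated and 2.57% in untreated knock-in cells, against 5.32% in treated and 5.1% in untreated wild-type cells. All 10 hepatocyte markers were present in each group. Their summed level was 75720 to 78620 CPM in treated and 84180 to 88740 CPM in untreated knock-in cells, against 121600 to 128500 CPM in treated and 121900 to 124800 CPM in untreated wild-type cells. Alb made up 80.9% to 87.2% of these sums. The other 9 hepatocyte genes summed to 11410 to 11780 CPM in treated and 16090 to 16360 CPM in untreated knock-in cells. In wild-type cells they summed to 15550 to 16990 CPM with CP775146 and 20410 to 21090 CPM without. Against wild type, 6 of the 10 fell and 0 rose in untreated knock-in cells, and 7 fell and 1 rose in treated ones. With CP775146, 8 fell and 0 rose in knock-in cells, and 6 fell and 1 rose in wild-type cells. Over all genes, 18.6% fell in untreated and 22% in treated knock-in cells against wild type. With CP775146, 19.1% of all genes fell in knock-in and 22.3% in wild-type cells. Summed markers of macrophages (7 genes) were 107 to 121 CPM in treated and 152 to 161 CPM in untreated knock-in cells, against 185 to 189 CPM in treated and 212 to 253 CPM in untreated wild-type cells, but Cd68 alone gave 96.6% to 98.7% of them. The other 6 macrophage genes summed to 2.88 to 3.59 CPM in treated and 5.07 to 5.29 CPM in untreated knock-in cells, against 2.53 to 3.13 CPM in treated and 3.58 to 4.43 CPM in untreated wild-type cells. Of the 6 macrophage genes tested, 1 (Marco) rose and 1 (Cd68) fell in untreated knock-in cells, and 2 rose and 1 (Cd68) fell in treated knock-in cells, with list medians of 0.26 and 0.29. Endothelial markers (7 genes) summed to 34.7 to 40.0 CPM in treated and 46.2 to 51.9 CPM in untreated knock-in cells, against 66.0 to 68.5 CPM in treated and 76.1 to 87.6 CPM in untreated wild-type cells. Without Stab2, which gave 61.6% to 80.3% of them, the sums were 12.2 to 13.3 CPM in treated and 13.99 to 15.4 CPM in untreated knock-in cells, against 14.02 to 14.4 CPM in treated and 15.2 to 17.2 CPM in untreated wild-type cells. Stellate cell markers (7 genes) were 96.6% to 98.6% Reln, which had 62.8 to 72.0 CPM in treated and 103 to 115 CPM in untreated knock-in cells, against 153 to 189 CPM in treated and 178 to 211 CPM in untreated wild-type cells. The other 6 stellate genes summed to 2.10 to 2.52 CPM and 2.657 to 3.183 CPM in the treated and untreated knock-in groups, against 2.53 to 2.75 CPM and 3.006 to 3.545 CPM in the treated and untreated wild-type groups, and of the 6 tested only Reln passed between genotypes, as lower. Summed cholangiocyte markers were higher in knock-in cells, with 48.3 to 52.5 CPM in treated and 40.8 to 43.4 CPM in untreated knock-in cells, against 32.8 to 33.8 CPM in treated and 15.07 to 18.02 CPM in untreated wild-type cells. Without Spp1 the sums were 27.81 to 29.59 CPM in treated and 24.4 to 25.11 CPM in untreated knock-in cells. In wild type they were 23.19 to 24.41 CPM in treated and 10.85 to 11.43 CPM in untreated cells. Of 5 tested, 4 rose and 0 fell in untreated knock-in cells, and 3 rose and 0 fell in treated ones. Of the 6 cholangiocyte markers, Cftr was at 0 in each knock-in group. Markers of lymphocytes and neutrophils (8 genes) reached at most 0.306 CPM in sum, and Cd3g and Ms4a1 were at 0 in every library. The part of these shifts in the results below was not tested, and in bulk RNA fewer cells of a type and less RNA per cell cannot be told apart.

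Counted per kilobase of exon (RPKM, CPM divided by exon length), Cdkn1a had the highest level of the 10 genes in each group and Eda2r the lowest. In treated knock-in cells Cdkn1a averaged 153.1 ± 1.03 RPKM (SD, n = 3) and the libraries of Eda2r ran from 3.001 to 3.373 RPKM. In untreated wild-type cells Cdkn1a averaged 212 ± 7.004 RPKM and Eda2r 5.47 ± 0.0892 RPKM. Bax came next after Cdkn1a in every group, and Mdm2 stood at rank 5, ahead of Phlda3. Trp53inp1 had rank 3 and Ccng1 rank 4 in 3 of the groups, and in treated knock-in cells Ccng1 (71.8 ± 0.757 RPKM) stood above Trp53inp1 (64.8 ± 1.51 RPKM) without overlap of the libraries. The libraries of neighbours in this order overlapped for Bbc3 and Zmat3 in treated knock-in cells, for Phlda3 and Sesn1 in treated wild-type cells, and for Bax and Trp53inp1 in untreated wild-type cells. Sesn1 changed its place with the genotype, with rank 9 in both knock-in groups and rank 7 in both wild-type groups.

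Taken gene by gene over the groups, 9 of the 10 were lowest in treated knock-in cells and 8 were highest in untreated wild-type cells, in mean CPM. Ccng1 was lowest in treated wild-type cells and highest in untreated knock-in cells, and Bbc3 was highest in untreated knock-in cells. The ratio of the highest to the lowest group mean ran from 1.11 for Bax to 2.63 for Sesn1. It was 1.87 for Trp53inp1, 1.83 for Phlda3 and 1.72 for Eda2r.

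**Figure D1:**
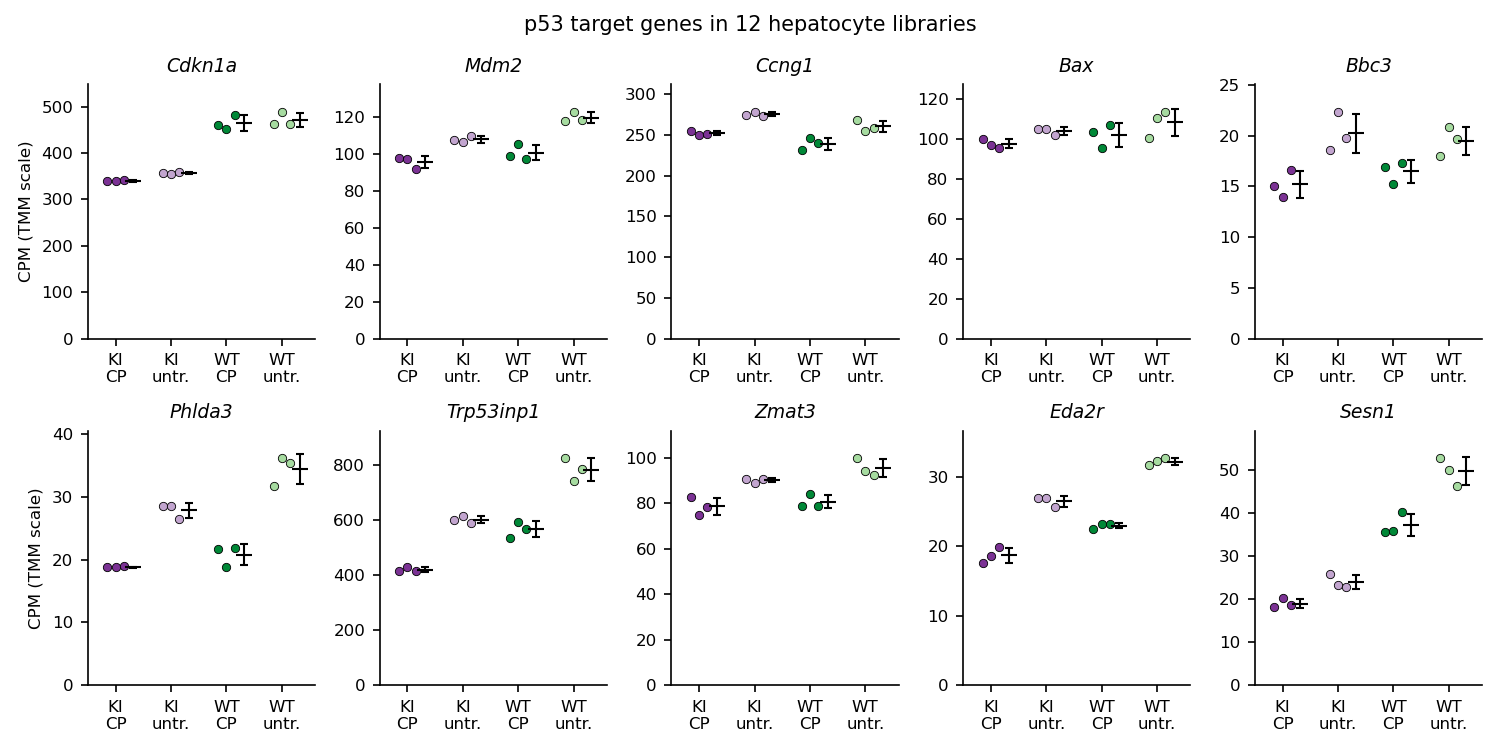
Level of each p53 target gene in each library, in CPM on the TMM scale (vertical axes start at 0). KI is knock-in, WT wild type, CP is CP775146 and untr. untreated; points are the 3 libraries of a group, and the bar beside them is the mean ± SD. Sesn1, Cdkn1a and Trp53inp1 are lower in knock-in than in wild-type cells of the same treatment, and Phlda3, Trp53inp1 and Eda2r are lower in treated than in untreated cells of the same genotype.

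The comparison of untreated knock-in with untreated wild-type cells asks how the changes in AEG-1 alter the transcriptome of the hepatocyte. Sesn1, Cdkn1a, Trp53inp1, Phlda3, Eda2r and Mdm2 fell in knock-in cells, and Ccng1, Bax, Bbc3 and Zmat3 did not pass the test. So 6 of the 10 fell and 0 rose at an adjusted p below 0.05 (edgeR quasi-likelihood test, Benjamini-Hochberg adjustment over all genes tested), where 37% of all genes passed, 18.6% as lower and 18.4% as higher. At an unadjusted p below 0.05, 1 of the 10 was higher, by edgeR, DESeq2 and limma voom alike, and DESeq2 and limma voom with adjustment also gave 0. The median log2 fold change of the 10 was −0.22, against −0.0042 over all genes. The 3 knock-in libraries lay below the 3 wild-type libraries for 7 of the genes, where this held for 23.8% of all genes.

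Sesn1 encodes sestrin 1, a stress protein that restrains the growth kinase complex mTORC1. It had 25.9, 23.4 and 22.8 CPM in untreated knock-in cells, against 52.9, 50.2 and 46.3 CPM in untreated wild-type cells. The groups were far apart, and Sesn1 fell by 1.05 ± 0.061 on the log2 scale (SE, edgeR adjusted p = 2.6e-14), to 0.482 times the wild-type level. Its absolute change was larger than that of 95.3% of all genes tested.

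Cdkn1a encodes p21, the inhibitor of cyclin-dependent kinases through which p53 stops the cell cycle. Its levels were 358, 355 and 359 CPM in untreated knock-in cells, against 462, 489 and 463 CPM in untreated wild-type cells. All knock-in libraries were lower, and Cdkn1a fell by 0.40 ± 0.036 on the log2 scale (edgeR adjusted p = 3.06e-10). Mdm2, the ubiquitin ligase that closes the feedback loop on p53, had 107.7, 106.5 and 110 CPM in untreated knock-in cells, against 118.0, 123 and 118.5 CPM in untreated wild-type cells. The groups did not overlap, but the difference was small, at −0.15 ± 0.040 (edgeR adjusted p = 0.00381), and with scaling by total counts it was −0.05 (edgeR adjusted p = 0.369).

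Among the genes tied to apoptosis and survival signalling, Trp53inp1, a nuclear stress protein that enhances p53 activity and takes part in autophagy, had 601, 613 and 588 CPM in untreated knock-in cells, against 825, 740 and 785 CPM in untreated wild-type cells. It fell by 0.38 ± 0.041 (edgeR adjusted p = 9.07e-09), with no overlap between the groups. Phlda3, whose product competes with the survival kinase AKT for membrane lipids, had 28.6, 28.5 and 26.5 CPM in untreated knock-in cells, against 31.7, 36.2 and 35.45 CPM in untreated wild-type cells. Here too every knock-in library was lower, and the change was −0.31 ± 0.059 (edgeR adjusted p = 0.000113). Eda2r, a receptor of the TNF receptor family that binds an isoform of ectodysplasin A, had 27.001, 26.97 and 25.63 CPM in untreated knock-in cells, against 31.7, 32.3 and 32.7 CPM in untreated wild-type cells, a change of −0.28 ± 0.053 (edgeR adjusted p = 7.56e-05).

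The pore-forming protein gene Bax averaged 104 ± 1.898 CPM in untreated knock-in and 108 ± 6.84 CPM in untreated wild-type cells (SD, n = 3), a difference of −0.06 on the log2 scale with a 95% interval of −0.15 to 0.04. Bbc3, which encodes PUMA, a BH3-only protein that neutralises the anti-apoptotic BCL2 proteins, averaged 20.2 ± 1.94 CPM and 19.5 ± 1.402 CPM in the same groups, with an interval of −0.10 to 0.21. Both had overlapping libraries. Zmat3, a zinc-finger protein that binds RNA and influences splicing and stability of transcripts, averaged 90.2 ± 0.953 CPM in untreated knock-in and 95.5 ± 3.89 CPM in untreated wild-type cells. Its groups did not overlap, yet the difference of −0.08 did not pass the test (edgeR adjusted p = 0.141). Ccng1, cyclin G1, which brings a phosphatase to MDM2, was higher in knock-in by its mean, as Bbc3 was, but without overlap of the libraries. It had 275, 279 and 273 CPM in untreated knock-in cells, against 269, 256 and 259 CPM in untreated wild-type cells, a difference of 0.08 ± 0.036 (edgeR adjusted p = 0.0847). It passed the test as higher with total-count scaling (0.18), with the stricter filter on low counts (edgeR adjusted p = 0.0422) and without replicate 1 of untreated wild type (edgeR adjusted p = 0.0422).

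In cells given CP775146, the genotype comparison asks the same with PPAR-alpha activated. Sesn1, Cdkn1a, Trp53inp1 and Eda2r were again lower in knock-in cells, and Phlda3 and Mdm2, which fell in the untreated knock-in cells, did not pass the test here. In all 4 of the 10 fell and 0 rose by edgeR, where 42.5% of all genes passed, 22% as lower and 20.5% as higher. At an unadjusted p below 0.05 edgeR, DESeq2 and limma voom each had 1 gene higher, and DESeq2 with adjustment called that gene, Ccng1, higher. The median log2 fold change of the 10 was −0.13, against −0.013 over all genes, and 4 of the 10 had every knock-in library below every wild-type library, where 26.3% of all genes had.

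Sesn1 had 18.2, 20.2 and 18.5 CPM in treated knock-in cells, against 35.7, 35.9 and 40.3 CPM in treated wild-type cells, and fell by 0.97 ± 0.064 (edgeR adjusted p = 3.36e-13). Cdkn1a had 339.1, 339.1 and 343 CPM in treated knock-in cells, against 461, 451 and 483 CPM in treated wild-type cells, and fell by 0.45 ± 0.036 (edgeR adjusted p = 1.98e-11). Trp53inp1 had 414, 431 and 413 CPM in treated knock-in cells, against 536, 594 and 569 CPM in treated wild-type cells, a change of −0.43 ± 0.042 (edgeR adjusted p = 7.25e-10). For these genes the lowest wild-type library stood well above the highest knock-in library. Eda2r had 17.7, 18.7 and 19.9 CPM in treated knock-in cells, against 22.6, 23.2 and 23.2 CPM in treated wild-type cells, a change of −0.29 ± 0.056 (edgeR adjusted p = 8.25e-05).

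Phlda3 had 18.8, 18.8 and 18.9 CPM in treated knock-in cells, against 21.6, 18.8 and 21.8 CPM in treated wild-type cells. Replicate 2 of treated wild type lay within the knock-in range, and the difference of −0.14 ± 0.065 did not pass the test (edgeR adjusted p = 0.0837). Without that library it was −0.20 (edgeR adjusted p = 0.0164). Mdm2 averaged 95.7 ± 3.30 CPM in treated knock-in and 100.7 ± 4.07 CPM in treated wild-type cells (SD, n = 3), a difference of −0.07 with a 95% interval of −0.16 to 0.01. The intervals of Bax (−0.16 to 0.03), Bbc3 (−0.28 to 0.05) and Zmat3 (−0.13 to 0.05) also included 0, and their libraries overlapped. Ccng1 averaged 252 ± 2.66 CPM in treated knock-in and 239 ± 7.26 CPM in treated wild-type cells, a difference of 0.07 (edgeR adjusted p = 0.097) without overlap. It passed as higher with total-count scaling (0.21), with DESeq2 (adjusted p = 0.0474) and, by edgeR, without replicate 2 of treated wild type (adjusted p = 0.029).

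**Figure D2:**
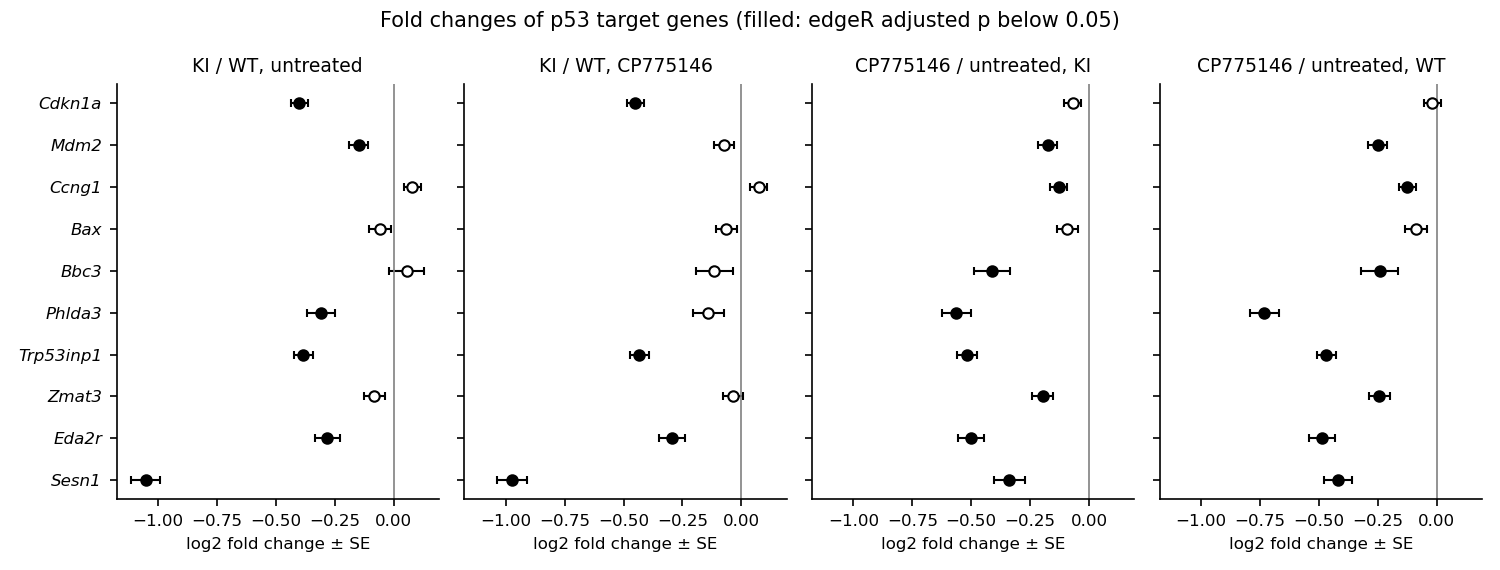
Log2 fold change of each p53 target gene in 4 comparisons (KI knock-in, WT wild type), as points with bars for ± SE; filled points have an edgeR adjusted p below 0.05. Sesn1 lies near −1 in both genotype comparisons, and the points of both CP775146 comparisons all lie at or left of 0, with Cdkn1a and Bax open.

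CP775146 against no treatment asks how hepatocytes of each genotype respond to the agonist. In knock-in cells Trp53inp1, Phlda3, Eda2r, Bbc3, Sesn1, Zmat3, Mdm2 and Ccng1 fell, 8 of the 10, and 0 rose, where 37.2% of all genes passed by edgeR, 19.1% as lower and 18.1% as higher. All 10 genes had every treated library below every untreated library, where 26.9% of all genes had. The median log2 fold change was −0.27, against −0.0099 over all genes. In wild-type cells 8 of the 10 fell and 0 rose, where 45% of all genes passed, 22.3% as lower and 22.7% as higher, and the median was −0.25, against −0.0052 over all genes. These were the same 8 genes, and each of the 8 had every treated library below every untreated one, where 24.4% of all genes had. No gene of the 10 was higher at an unadjusted p below 0.05 in either genotype, by edgeR (count 0), DESeq2 (0) or limma voom (0).

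Phlda3 had the largest change of the 10 in both genotypes. It had 18.8, 18.8 and 18.9 CPM in treated knock-in cells, against 28.6, 28.5 and 26.5 CPM in untreated knock-in cells, a change of −0.56 ± 0.062 (edgeR adjusted p = 1.22e-08). It had 21.6, 18.8 and 21.8 CPM in treated wild-type cells, against 31.7, 36.2 and 35.45 CPM in untreated wild-type cells, a change of −0.73 ± 0.062 (edgeR adjusted p = 4.47e-11). The treated level was 0.676 times the untreated one in knock-in and 0.602 times in wild-type cells. The wild-type change was larger in size than that of 88% of all genes tested.

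Trp53inp1 had 414, 431 and 413 CPM in treated knock-in cells, against 601, 613 and 588 CPM in untreated knock-in cells, a change of −0.52 ± 0.042 (edgeR adjusted p = 1.72e-11). In treated wild-type cells it had 536, 594 and 569 CPM, against 825, 740 and 785 CPM in untreated wild-type cells, a change of −0.47 ± 0.041 (edgeR adjusted p = 1.05e-10). Treated and untreated libraries stood apart in both genotypes. Eda2r had 17.7, 18.7 and 19.9 CPM in treated knock-in cells, against 27.001, 26.97 and 25.63 CPM in untreated knock-in cells, a change of −0.50 ± 0.055 (edgeR adjusted p = 1.16e-08). In wild type it had 22.6, 23.2 and 23.2 CPM in treated cells, against 31.7, 32.3 and 32.7 CPM in untreated cells, a change of −0.49 ± 0.054 (edgeR adjusted p = 1.23e-08).

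Sesn1 fell to 18.97 ± 1.09 CPM in treated knock-in cells, against 24.0 ± 1.62 CPM in untreated knock-in cells (SD, n = 3), a change of −0.34 ± 0.066 (edgeR adjusted p = 0.000133). In wild type it fell to 37.3 ± 2.57 CPM in treated cells, against 49.8 ± 3.28 CPM in untreated cells, a change of −0.42 ± 0.059 (edgeR adjusted p = 1.04e-06). Both untreated knock-in and treated knock-in cells therefore had less Sesn1 RNA, in CPM, than wild-type cells of either treatment. Bbc3 had 15.05, 13.95 and 16.58 CPM in treated knock-in cells, against 18.5, 22.4 and 19.8 CPM in untreated knock-in cells, a change of −0.41 ± 0.075 (edgeR adjusted p = 6.74e-05). In wild type it had 16.9, 15.2 and 17.3 CPM in treated cells, against 18.02, 20.82 and 19.63 CPM in untreated cells, a change of −0.24 ± 0.078 (edgeR adjusted p = 0.0122). The wild-type call was lost with limma voom (adjusted p = 0.0876) and, by edgeR, without replicate 2 of untreated (adjusted p = 0.0726) or of treated wild type (adjusted p = 0.0642).

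Mdm2 averaged 95.7 ± 3.30 CPM in treated and 108 ± 1.77 CPM in untreated knock-in cells, a change of −0.18 ± 0.040 (edgeR adjusted p = 0.000879). In wild type it averaged 100.7 ± 4.07 CPM in treated and 119.8 ± 2.77 CPM in untreated cells, a change of −0.25 ± 0.041 (edgeR adjusted p = 7.8e-06). Zmat3 changed by −0.20 ± 0.043 in knock-in cells (edgeR adjusted p = 0.000499) and by −0.24 ± 0.044 in wild-type cells (edgeR adjusted p = 3.33e-05). Ccng1 changed by −0.13 ± 0.036 in knock-in cells (edgeR adjusted p = 0.00494) and by −0.12 ± 0.036 in wild-type cells (edgeR adjusted p = 0.00573). Without replicate 1 of untreated wild type the wild-type value of Ccng1 was −0.10 (edgeR adjusted p = 0.0515).

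Cdkn1a, the gene of the 10 with the highest level per kilobase, was −0.07 ± 0.036 in knock-in cells (edgeR adjusted p = 0.137) and −0.02 ± 0.036 in wild-type cells (edgeR adjusted p = 0.694), with 95% intervals of −0.14 to 0.0045 and −0.09 to 0.05. The treated knock-in libraries still all lay below the untreated ones, and those of wild type overlapped. Bax was −0.09 ± 0.046 in knock-in (edgeR adjusted p = 0.119) and −0.09 ± 0.046 in wild-type cells (edgeR adjusted p = 0.131). With total-count scaling both genes passed as lower in knock-in cells (Cdkn1a −0.13, Bax −0.15) and in wild-type cells (Cdkn1a −0.12, Bax −0.19), with edgeR adjusted p-values between 0.00128 and 0.00687. Bax also passed in knock-in cells with limma voom (adjusted p = 0.0323), and in wild-type cells without replicate 1 of untreated (edgeR adjusted p = 0.0258) or replicate 3 of treated wild type (edgeR adjusted p = 0.0439). In a fit of the knock-in groups alone both passed (edgeR adjusted p = 0.0352 for Cdkn1a and 0.0199 for Bax).

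Whether the agonist response differed between genotypes was tested with the interaction of genotype and CP775146, the response in knock-in minus the response in wild type. Of the 10 genes, 0 passed in either direction by edgeR, DESeq2 or limma voom, and 0 had an unadjusted p below 0.05 by any of them. Over all genes 7.11% passed, 2.78% with a higher and 4.33% with a lower response in knock-in cells. The interaction was 0.17 for Phlda3 with a 95% interval of −0.01 to 0.35, and −0.17 for Bbc3 with an interval of −0.39 to 0.05. It was closest to 0 for Ccng1 (−0.0047, interval −0.11 to 0.10) and Bax (−0.0049, interval −0.14 to 0.13). Differences in response within these bounds were not detectable at this precision.

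**Figure D3:**
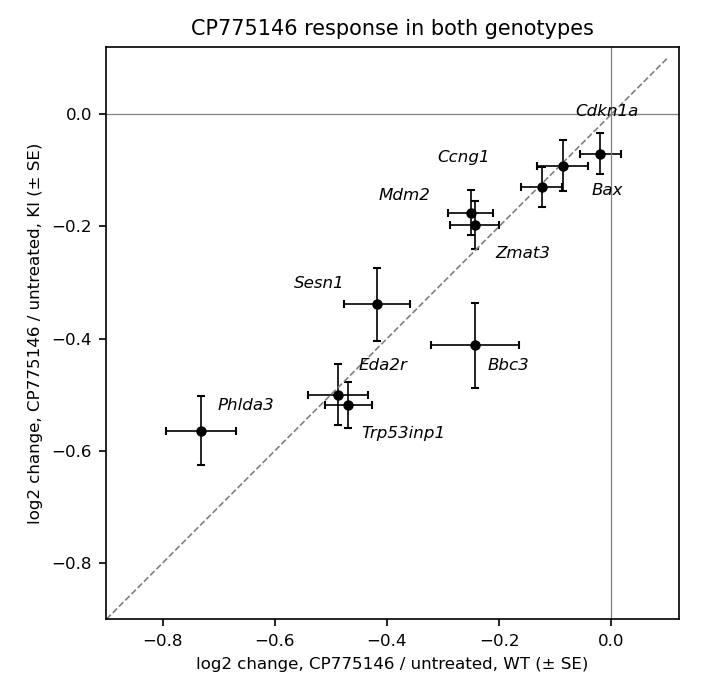
Log2 fold change with CP775146 in knock-in cells (KI, vertical axis) against that in wild-type cells (WT, horizontal axis) for the 10 p53 target genes, with bars of ± SE; the dashed line marks equal responses. All 10 points lie at or below 0 on both axes, with Phlda3 at −0.56 and −0.73 and Bbc3 at −0.41 and −0.24, and 0 of the 10 passed the interaction test.

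The scale of these comparisons matters for the small changes. With total-count scaling the median of all genes moved to 0.0975 in the untreated and 0.124 in the treated genotype comparison, and to −0.0736 and −0.104 for CP775146 in knock-in and wild-type cells. The split of called genes moved with it, to 5024 higher and 1722 lower in the untreated genotype comparison, against 2884 and 2918 with TMM. In treated cells it was 5950 and 1867, against 3218 and 3447. For CP775146 it was 2066 and 4352 in knock-in cells, against 2832 and 2989, and 2358 and 5338 in wild-type cells, against 3553 and 3496. Relative to the median of all genes, the median of the 10 was −0.21, −0.11, −0.26 and −0.24 in these comparisons under TMM, RLE and total-count scaling. A change of scaling shifts all genes of a comparison by nearly the same amount. These differences could therefore not move, and they are no test of the result. By total counts, members called lower were 5 in untreated and 4 in treated genotype comparisons and 10 with CP775146 in each genotype.

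Trp53 itself was higher in knock-in cells. It had 85.0, 89.0 and 90.0 CPM in untreated knock-in cells, against 72.5, 77.4 and 68.1 CPM in untreated wild-type cells, a change of 0.28 ± 0.047 (edgeR adjusted p = 2.24e-05). In treated cells it had 88.9, 82.5 and 83.5 CPM in knock-in, against 67.4, 61.8 and 64.3 CPM in wild type, a change of 0.40 ± 0.048 (edgeR adjusted p = 5.06e-08). So p53 mRNA rose where 6 and 4 of the 10 targets fell. With CP775146, Trp53 fell in wild type (−0.17 ± 0.049, edgeR adjusted p = 0.00448), and in knock-in it was −0.05 ± 0.046 (edgeR adjusted p = 0.419). The interaction for Trp53 did not pass (0.12 ± 0.067, edgeR adjusted p = 0.324). These are RNA levels, and the amount, modification and DNA binding of the p53 protein were not measured in these libraries.

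Mdm4, which restrains p53 together with MDM2, fell in untreated knock-in cells to 70.3 ± 1.68 CPM, against 87.0 ± 1.82 CPM in untreated wild-type cells (SD, n = 3), a change of −0.31 ± 0.043 (edgeR adjusted p = 9.19e-07). In treated cells its change was −0.30 ± 0.043 (edgeR adjusted p = 8.87e-07). CP775146 left no call on Mdm4, with −0.04 ± 0.043 in knock-in and −0.04 ± 0.043 in wild-type cells. Among the damage kinases upstream of p53, Atr fell to 58.0 ± 1.07 CPM in untreated knock-in cells, against 77.8 ± 3.39 CPM in untreated wild-type cells (−0.42 ± 0.050, edgeR adjusted p = 5.03e-08), and also fell in treated knock-in cells (−0.42 ± 0.049, edgeR adjusted p = 3.04e-08). Chek1 rose to 4.33 ± 0.417 CPM in untreated knock-in cells, against 1.72 ± 0.154 CPM in untreated wild-type cells (1.33 ± 0.16, edgeR adjusted p = 9.06e-08). Of the 18 tested genes in the list of p53 and its regulators (21 listed), 2 rose and 4 fell in untreated knock-in cells and 4 rose and 5 fell in treated knock-in cells. With total-count scaling these splits turned round, to 4 higher and 2 lower in untreated and 7 higher and 3 lower in treated knock-in cells. Over all genes 37% passed in untreated and 42.5% in treated cells with TMM scaling, so the TMM counts are near that share. With CP775146, 0 rose and 2 fell in knock-in cells (Ep300, a p53 acetyltransferase, and the deacetylase gene Sirt1), where 37.2% of all genes passed. In wild-type cells 1 rose and 5 fell, where 45% of all genes passed. The riser was Rpl5, a ribosomal protein that binds MDM2 (0.32 ± 0.093, edgeR adjusted p = 0.00661), and its call was lost with total-count scaling (edgeR adjusted p = 0.0566). Rpl5 had 253 to 464 counts per library, without multi-mapping reads, so these counts may miss part of its RNA. For the 0 that rose in knock-in cells, 1 gene was higher at an unadjusted p below 0.05, and limma voom called 1. The fallers in wild type included both acetyltransferase genes, Crebbp (−0.42 ± 0.068, edgeR adjusted p = 2.23e-05) and Ep300 (−0.44 ± 0.069, edgeR adjusted p = 5.87e-05). Ppm1d, the phosphatase that switches the damage response off and is itself a p53 target, fell with CP775146 in knock-in (−0.47 ± 0.090, edgeR adjusted p = 0.000114) and wild-type cells (−0.38 ± 0.093, edgeR adjusted p = 0.00125). It passed in neither genotype comparison (−0.13 ± 0.095 in treated cells, −0.04 ± 0.088 in untreated cells).

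**Figure D4:**
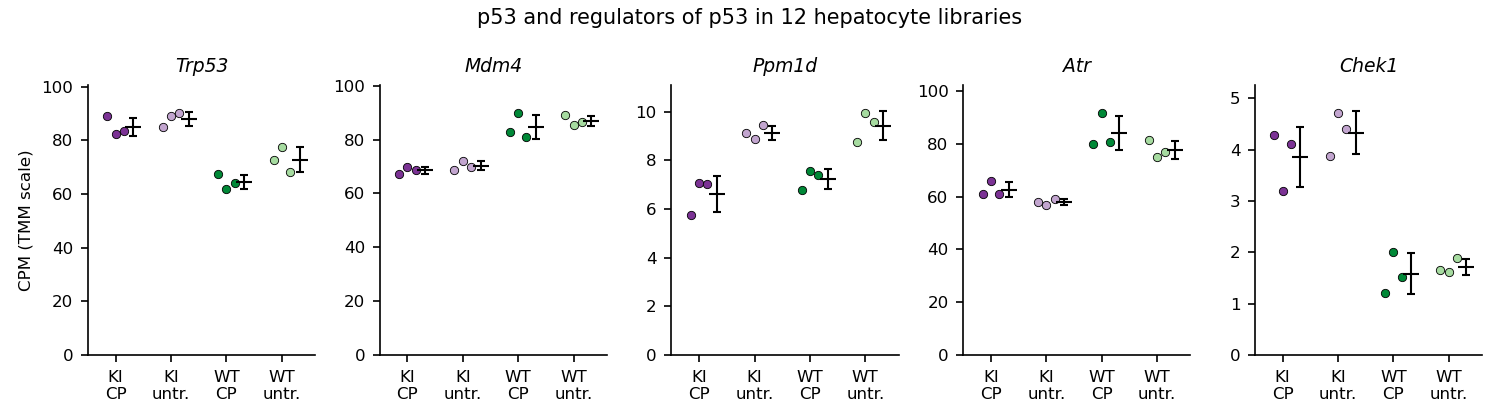
Level of Trp53 and of 4 genes that act on p53 in each library, in CPM on the TMM scale (vertical axes start at 0), with the mean ± SD of 3 libraries beside the points. KI is knock-in, WT wild type, CP is CP775146 and untr. untreated. Trp53 and Chek1 are higher and Mdm4 and Atr lower in the knock-in groups, and Ppm1d is lower in the treated groups.

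The 40 other p53 targets on the list, of which 38 were tested, moved in both directions. In untreated knock-in cells, compared with wild type, 10 rose and 11 fell, with a median of 0.0085, and in treated knock-in cells 13 rose and 11 fell, with a median of 0.04. With CP775146, 11 rose and 11 fell in knock-in cells (median −0.02), and 11 rose and 12 fell in wild-type cells (median −0.03). With total-count scaling the splits were 14 and 10, 19 and 11, 9 and 13, and 10 and 18, higher first. Over all genes, with TMM scaling, 37%, 42.5%, 37.2% and 45% passed in these comparisons, in the same order. The medians of the 10 genes in the same order were −0.22, −0.13, −0.27 and −0.25. Ddit4, another inhibitor of mTORC1, fell like Sesn1, to 60.1 ± 0.998 CPM in untreated knock-in cells, against 113.6 ± 6.33 CPM in untreated wild-type cells (−0.92 ± 0.045, edgeR adjusted p = 3.38e-16), and in treated cells by −0.97 ± 0.046 (edgeR adjusted p = 1.37e-16). The kinase gene Plk2, the receptor gene Epha2 and the immediate early gene Ier5 rose in untreated knock-in cells, by 0.55 ± 0.041, 0.54 ± 0.046 and 0.57 ± 0.050. Among treated cells Gdf15, a secreted stress cytokine, was lower in knock-in (−0.66 ± 0.052, edgeR adjusted p = 7.13e-11). In untreated cells Gdf15 averaged 56.7 ± 3.67 CPM in knock-in and 82.0 ± 6.51 CPM in wild type.

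With CP775146 the calls with the smallest adjusted p among these other targets were rises. Ddb2, a sensor of UV damage, rose to 18.01 ± 0.518 CPM in treated knock-in cells, against 10.6 ± 0.889 CPM in untreated knock-in cells (0.77 ± 0.068, edgeR adjusted p = 1.65e-10), and to 26.0 ± 1.13 CPM in treated wild-type cells, against 11.0 ± 0.467 CPM in untreated wild-type cells (1.24 ± 0.068, edgeR adjusted p = 1.98e-15). Gdf15 rose by 0.63 ± 0.054 in knock-in and by 0.75 ± 0.053 in wild-type cells. The sulfatase gene Sulf2 rose by 0.64 ± 0.050 and 0.72 ± 0.050, and Ephx1, a detoxifying epoxide hydrolase, by 0.46 ± 0.036 and 0.45 ± 0.036, in knock-in and wild-type cells. Other targets were lower with the agonist. Apaf1 averaged 14.8 ± 0.735 CPM in treated and 22.0 ± 0.159 CPM in untreated knock-in cells. In wild type it averaged 14.4 ± 0.365 CPM in treated and 22.1 ± 0.0914 CPM in untreated cells. Of the 38 other targets tested, 11 rose and 11 fell in knock-in cells, and 11 rose and 12 fell in wild-type cells.

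**Figure D5:**
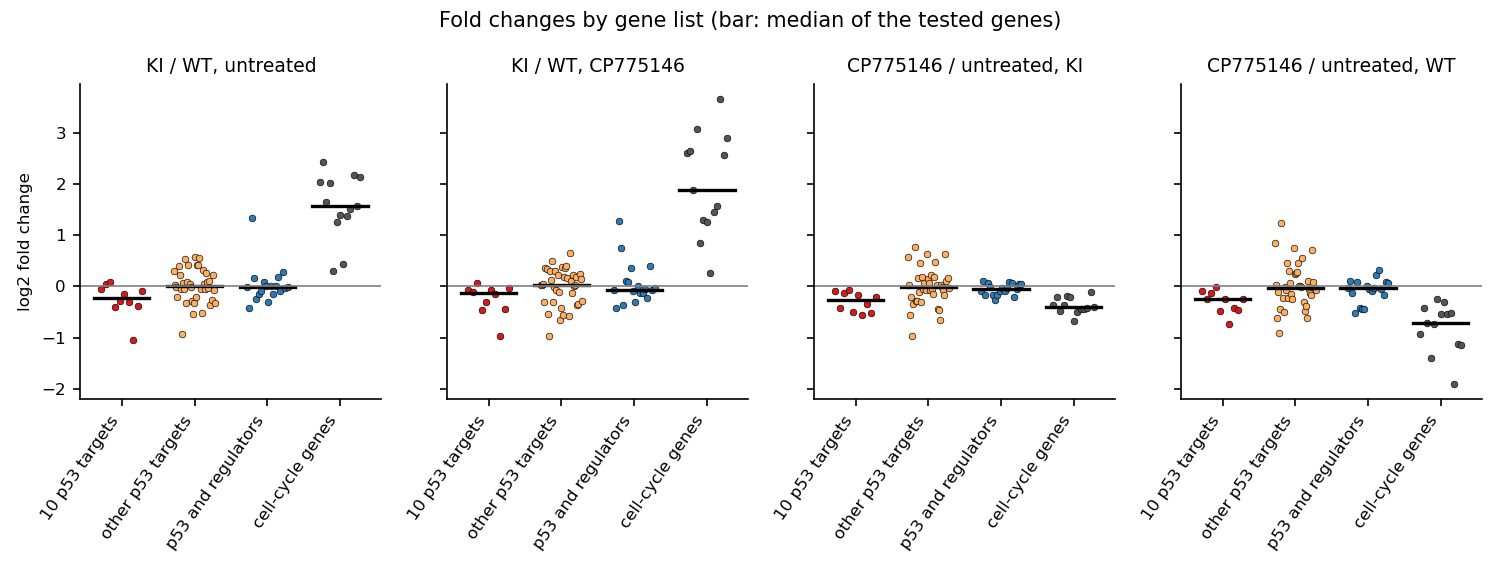
Log2 fold change of every tested gene of 4 lists in 4 comparisons (KI knock-in, WT wild type), 1 point per gene with a bar at the list's median: the 10 p53 targets, other p53 targets, p53 and its regulators, and cell-cycle genes repressed through p53 and p21. The 10 targets have medians of −0.22, −0.13, −0.27 and −0.25 from left to right, the other targets lie on both sides of 0, and the cell-cycle genes lie above 0 in the genotype comparisons and below 0 with CP775146.

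The paralogs of the 10 genes moved in both directions. Of 15 tested (17 listed), 4 rose and 2 fell in untreated knock-in cells, and 5 rose and 2 fell in treated knock-in cells, or 6 and 2, and 8 and 2, with total-count scaling. Over all genes 37% passed in untreated and 42.5% in treated cells with TMM scaling, so the TMM counts are near that share. Phlda1 and Phlda2, of the same family as Phlda3, rose in untreated knock-in cells, by 1.16 ± 0.074 (edgeR adjusted p = 1.58e-13) and 0.84 ± 0.12 (edgeR adjusted p = 2.47e-06), and Bak1, the partner of Bax in pore formation, rose by 0.29 ± 0.057 (edgeR adjusted p = 0.000202). Bcl2l11, a BH3-only gene like Bbc3, changed by −0.58 ± 0.074 there (edgeR adjusted p = 1.82e-07). Phlda1, Phlda2 and Bak1 also rose in treated knock-in cells, by 1.505 ± 0.076, 0.68 ± 0.12 and 0.42 ± 0.056. With CP775146, 2 rose and 5 fell in knock-in cells and 3 rose and 7 fell in wild-type cells, or 1 and 5, and 1 and 8, with total-count scaling. Over all genes 37.2% passed with CP775146 in knock-in and 45% in wild-type cells with TMM scaling. The BH3-only gene Bmf had the largest change, to 2.43 ± 0.501 CPM in treated knock-in cells, against 7.02 ± 0.312 CPM in untreated knock-in cells (−1.52 ± 0.14, edgeR adjusted p = 3.62e-10), and to 1.99 ± 0.303 CPM in treated wild-type cells, against 8.29 ± 1.38 CPM in untreated wild-type cells (−2.06 ± 0.15, edgeR adjusted p = 1.69e-12). Cdkn1b, the p27 paralog of Cdkn1a, fell with CP775146 in knock-in cells (−0.38 ± 0.052, edgeR adjusted p = 6.78e-07). In wild type it was lower as well, at 34.3 ± 2.72 CPM in treated and 45.3 ± 2.03 CPM in untreated cells. Trp53inp2, which promotes autophagosome formation, rose by 0.71 ± 0.042 in knock-in (edgeR adjusted p = 2.33e-14) and by 0.68 ± 0.043 in wild-type cells (edgeR adjusted p = 5.81e-14), the opposite direction to Trp53inp1.

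Of the anti-apoptotic BCL2 genes, 4 of 5 were tested. Between genotypes 0 passed by edgeR and 0 had an unadjusted p below 0.05, DESeq2 had 1 such p in untreated cells, and with total-count scaling 3 passed as higher in each genotype comparison. Over all genes 37% passed by edgeR with TMM scaling in untreated and 42.5% in treated cells. With CP775146, Bcl2l1 and Mcl1, which hold BAX in check, fell in knock-in cells by −0.30 ± 0.039 (edgeR adjusted p = 2.15e-07) and −0.26 ± 0.036 (edgeR adjusted p = 6.04e-07), and in wild-type cells by −0.26 ± 0.039 (edgeR adjusted p = 2.62e-06) and −0.20 ± 0.036 (edgeR adjusted p = 5.05e-05). Bcl2, at 2.92 ± 0.350 CPM in treated and 2.08 ± 0.325 CPM in untreated knock-in cells, rose by 0.48 ± 0.18 (edgeR adjusted p = 0.0333), a call lost with total-count scaling (edgeR adjusted p = 0.0621) and not made by DESeq2. In wild type it rose by 0.73 ± 0.20 (edgeR adjusted p = 0.00325), although its libraries overlapped.

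A list of cell-cycle genes known to be repressed downstream of p53 and p21 was mostly higher in knock-in cells. A link to the level of Cdkn1a was not tested. Of 13 tested (14 listed), 12 rose and 0 fell in untreated knock-in cells, with a median of 1.57, and 13 rose and 0 fell in treated knock-in cells, with a median of 1.88. Over all genes 18.4% rose in untreated and 20.5% in treated knock-in cells. Some of the list had few counts in wild type. Ccnb1 had 3, 3 and 2 counts in untreated wild-type libraries, against 10, 15 and 16 in untreated knock-in ones. Bub1 had 4, 7 and 3, against 33, 30 and 31. Such genes passed the filter on low counts through the knock-in groups, so their rise was partly fixed by the filter and adds no support. Mki67, the proliferation marker, had 11.4 ± 0.396 CPM in untreated knock-in and 2.53 ± 0.0659 CPM in untreated wild-type cells (2.18 ± 0.11, edgeR adjusted p = 1.34e-15), and the replication helicase gene Mcm5 had 19.7 ± 0.497 CPM and 6.93 ± 0.132 CPM in these groups (1.51 ± 0.071, edgeR adjusted p = 1.41e-16). With CP775146 the list moved the other way, with 0 rising and 7 falling in knock-in cells (median −0.39) and 0 rising and 9 falling in wild-type cells (median −0.71). Over all genes 19.1% fell with CP775146 in knock-in and 22.3% in wild-type cells. Wherever 0 is given for this list, DESeq2 and limma voom also gave 0, and 0 had an unadjusted p below 0.05 in that direction. Summed hepatocyte markers were lower in the knock-in groups, as were Cd68, Stab2 and Reln, with the rest of each list as given above. The part of cell makeup in these values was not tested.

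For each of the 10 genes, the 3 tested genes outside the 10 with the most similar profile over the 12 libraries were found by the root-mean-square difference of centred log2 CPM. For Cdkn1a these were Apoe (0.0301), Slc27a5 (0.0376) and Kng1 (0.0387), beside an SD of Cdkn1a itself of 0.225 over the libraries. For Sesn1, with an SD of 0.570, they were Atp7a (0.086), Stab2 (0.0905) and Ppp1r3b (0.0916). Stab2 is one of the endothelial markers, and it averaged 24.4 CPM in treated and 33.6 CPM in untreated knock-in cells, against 52.8 CPM in treated and 65.1 CPM in untreated wild-type cells. For Trp53inp1 they were Tbcel (0.0602), F5 (0.0607) and Col15a1 (0.066), for Phlda3 Rgl2 (0.0701), Aldh1l1 (0.0737) and Idh2 (0.0775), and for Eda2r Zfp821 (0.0507), Dgcr8 (0.052) and Klhl24 (0.0542). The genes nearest to Mdm2 were Zmynd11, Parg and Ubr2, those nearest to Zmat3 were Setd2, Qk and Zfp148, and those nearest to Ccng1 were Hp1bp3, Rfc1 and Ddx3x, at 0.0257 to 0.0349. Those nearest to Bax were Nsmf, Cnot10 and Asb6 (0.0357 to 0.0376), and those nearest to Bbc3 were Cdc42ep1, Rab17 and Sord (0.0835 to 0.0866).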

How the data were processed

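RNA of 12 libraries was sequenced. What the authors deposited are unnormalized counts of reads per gene for each library. Per the file headers they come from featureCounts 1.6.2 over exons of Ensembl release 83 (GRCm38), unstranded and without multi-mapping reads, whereas the submitters' processing notes list featureCounts 1.4.6-p4, Subread, cutadapt 1.9, FastQC 0.11.2 and edgeR 3.18.1. The exons of the 10 genes overlapped no exons of another gene on either strand. IDs were matched to symbols for 46488 of 46983 genes. The 37 mitochondrial genes hold 0 counts, which is not read as a lack of expression. No libraries were identical. To look for pairing, each library's deviations of log2 CPM from its group's mean were correlated over genes between groups. For same-numbered libraries these correlations were not above 0.1, and numbers were used to name libraries only. A weak pairing could be missed this way.

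After filterByExpr (at least 10 counts, 15 in total) and TMM scaling, the model of edgeR 4.0.16 (R 4.3.3; glmQLFit, robust) had 1 term per group and 8 residual degrees of freedom before moderation. A call is a Benjamini-Hochberg adjusted p below 0.05 over 15664 genes. SE is the log2 fold change over the root of F, and intervals are 95%. The fit was checked on simulated data.

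The 10 genes, the lists and the tests were chosen with earlier results of these data known. Named from each list were up to 4 genes with the smallest adjusted p in a contrast or, with no call, the 2 most abundant in CPM, and always Trp53 and Mdm4. Ppm1d, Rpl5 and the single cell-type markers were named after their values were seen. The alternatives comprised scaling by RLE or total counts, DESeq2 1.42.0, voom with sample weights (limma 3.58.1), leaving the low-count filter off or requiring 5 CPM in 3 libraries, fitting just the groups compared, blocking on replicate number, and omitting each library.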

Additional observations from a re-analysis of the deposited data

Results flagged for a closer look

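By the edgeR interaction test over all genes (response in knock-in minus response in wild type, log2), 0 of the 10 p53 targets passed. Over all genes 7.11% passed, so 0 of 10 is near that share and does not show equal responses. In the surrounding lists 10 genes passed. Of 38 other p53 targets 2 passed as higher and 3 as lower, and of 15 paralogs 1 and 1. Of 18 in the list of p53 and its regulators 1 passed, of 13 cell-cycle genes 2, and of 4 anti-apoptotic BCL2 genes 0. Where the wild-type response was the larger rise, the difference was −0.474 ± 0.097 for Ddb2 (0.768 in knock-in, 1.24 in wild type, adjusted p = 0.00187) and −0.241 ± 0.053 for Perp, a desmosomal p53 target (0.217 and 0.459, adjusted p = 0.00366). For Mgmt, a DNA repair enzyme, it was −0.344 ± 0.095 (−0.0648 in knock-in, 0.279 in wild type, adjusted p = 0.025), and for Ccng2, the paralog of Ccng1, −0.306 ± 0.086 (−0.0664 and 0.24, adjusted p = 0.0281).

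The difference was 0.205 ± 0.059 for the kinase gene Plk3 (0.187 in knock-in, −0.0186 in wild type, adjusted p = 0.0293) and 0.173 ± 0.052 for Ei24 (0.164 and −0.00945, adjusted p = 0.0393). It was 0.593 ± 0.15 for the checkpoint kinase gene Chek2 (0.0713 in knock-in, −0.522 in wild type, adjusted p = 0.0152) and 0.346 ± 0.11 for Phlda1, the paralog of Phlda3 (0.00605 and −0.34, adjusted p = 0.0496). The proliferation genes Mki67 and Top2a fell less in knock-in cells, with differences of 1.49 ± 0.22 (−0.423 in knock-in, −1.91 in wild type, adjusted p = 2.57e-05) and 0.759 ± 0.23 (−0.393 and −1.15, adjusted p = 0.0402). Their wild-type falls rest on few counts, with 26, 21 and 11 of Mki67 and 34, 24 and 21 of Top2a in treated wild-type libraries. DESeq2 and limma voom called 0 paralogs with a higher response in knock-in cells, so the Phlda1 call was made by edgeR alone. Of the cell-cycle genes limma voom called 1, where edgeR and DESeq2 called 2. No cause of these differences was tested. The number of genes past the interaction test was sensitive to single libraries, as given in the next part.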

How the results depend on the processing

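The counts of p53 targets called lower stayed within 1.5 times of 6, 4, 8, 8 and 0 under every alternative run. With total-count scaling 1 target was called higher in the untreated and 1 in the treated genotype comparison (main values 0), all genes called were 5024 higher and 1722 lower in untreated and 5950 higher and 1867 lower in treated genotype comparisons, 2358 higher and 5338 lower with CP775146 in wild type, and 663 higher for the interaction. DESeq2 called 1 target higher in the treated and the filter of 5 CPM called 1 target higher in the untreated genotype comparison. Leaving out each library, targets called higher were 0 to 1 in both genotype comparisons, targets called lower 7 to 9 with CP775146 in wild type, and genes called higher for the interaction 251 to 638, against 435; these were 251 without replicate 1 of treated knock-in, 270 and 271 without replicates 1 and 2 of untreated knock-in.

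Signs turned for these values, none of which passed the test as reported; Cdkn1a with CP775146 in wild type, which turned with a library left out, passed as lower with total-count scaling (−0.119). With total-count scaling these were Bax (0.0432) and Zmat3 (0.0198) in the untreated genotype comparison, Mdm2 (0.0633), Bax (0.0738), Bbc3 (0.0227) and Zmat3 (0.101) in the treated one, and the interactions of Ccng1 (0.0307), Bax (0.0306) and Eda2r (0.0224). The interaction turned with RLE scaling for Ccng1 (0.00137) and Bax (0.00106), with DESeq2 for Ccng1 (0.00141) and Bax (0.00104), and with limma voom for Ccng1 (0.00945). With a library left out, they were Bbc3 in the untreated genotype comparison (−0.0152 to 0.117), Zmat3 in the treated one (−0.07 to 0.00114), Cdkn1a with CP775146 in wild type (−0.053 to 0.0111), and the interactions of Bax (−0.0411 to 0.0404), Ccng1 (−0.0315 to 0.0272) and Eda2r (−0.0633 to 0.0221). Apart from total-count scaling, which moves all genes by construction, the cause was not tested.

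The replicate number as a block kept every call of the 10 genes (Sesn1 −1.05 in untreated cells), with 8 lower for CP775146 in each genotype; within genotype it also left 8 lower. Correlations of the deviations from group means were −0.0264 to 0.0634 for same-numbered libraries and −0.0733 to 0.0707 for the others. They showed no pairing by number but cannot exclude one. Counting error is largest for Bbc3, with 447 counts in its lowest library.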
